A study of Mus musculus with 12 samples.

Results

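The Hox genes of 4 groups of bone marrow stromal cells were described: all genes whose symbol is Hoxa, Hoxb, Hoxc or Hoxd followed by a number alone. The mouse reference gene table holds 39 such genes, 35 of them are listed in the tables used here among 21001 genes, and 28 passed the filter on low values and were among the 12314 genes tested. Hoxa6, Hoxb13, Hoxd1 and Hoxd13 have no listed transcript. Hoxa2, Hoxa11, Hoxa13, Hoxb1, Hoxc12, Hoxd11 and Hoxd12 are listed but were too low to test. The cells are labelled as bone marrow stem cells from C57BL/6 mice, with the genotype given as "wide type", and all of them carry green fluorescent protein (GFP). NC is the primary culture of these cells. HOMING is GFP cells taken back from the marrow of mice given the cells alone, under the skin. BM is GFP cells recovered from marrow after injection in one mixture with Lewis lung carcinoma cells (LLC, a mouse lung tumour line), which were marked with red fluorescent protein. TUMOR is GFP cells from the injection site of mice with the mixture. Each group has 3 RNA-seq libraries of sorted cells. The gate, the purity, the number of mice, their age and whether the 3 replicates are separate cultures or animals are not given in the sources used here, so the p-values refer to the spread between libraries, which may be technical.

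Hox genes encode homeodomain transcription factors and lie in clusters in which the order of the genes along the chromosome follows the body region where each is active. Genes with low numbers act towards the head and those with high numbers towards the tail and the ends of the limbs. Adult fibroblasts and stromal cells keep a part of this pattern, so their Hox genes are often read as a record of the site from which they came. Polycomb complexes keep silent Hox genes off, and Trithorax complexes and retinoic acid signals keep active ones on. In the text below, paralog groups 1 to 3 are called anterior, 4 to 8 central and 9 to 13 posterior.

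Promoter sequence is shown first for the 3 Hoxd genes with the highest levels in TUMOR, Hoxd8, Hoxd9 and Hoxd10, and for Hoxd11, their next neighbour in the series of paralog numbers, which was near 0 in all 12 libraries and has 2 windows, of which 1 is shown. Each is the 250 bases before the start of transcription, from RefSeq on build GRCm38.p6, on the plus strand, with matches to the searched motifs in capitals. These windows are a reference and not a measurement, since the reads were mapped to build mm8.
Hoxd8 (chr2:74704365-74704614): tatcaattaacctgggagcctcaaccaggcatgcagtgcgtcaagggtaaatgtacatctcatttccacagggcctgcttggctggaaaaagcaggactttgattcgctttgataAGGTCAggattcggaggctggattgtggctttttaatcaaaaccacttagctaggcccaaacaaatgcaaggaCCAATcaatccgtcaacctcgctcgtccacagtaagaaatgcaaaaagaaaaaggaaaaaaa
Hoxd9 (chr2:74697513-74697762): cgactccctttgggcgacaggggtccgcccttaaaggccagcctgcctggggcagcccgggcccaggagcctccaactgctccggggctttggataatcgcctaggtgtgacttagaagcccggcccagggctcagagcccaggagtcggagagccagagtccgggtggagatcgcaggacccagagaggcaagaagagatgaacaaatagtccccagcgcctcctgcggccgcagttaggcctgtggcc
Hoxd10 (chr2:74691641-74691890): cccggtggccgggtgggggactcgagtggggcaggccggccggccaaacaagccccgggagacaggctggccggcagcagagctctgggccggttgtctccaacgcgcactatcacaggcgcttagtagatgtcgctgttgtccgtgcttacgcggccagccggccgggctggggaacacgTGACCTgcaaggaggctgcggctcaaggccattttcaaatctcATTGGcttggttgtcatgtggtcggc
Hoxd11 (chr2:74682073-74682322): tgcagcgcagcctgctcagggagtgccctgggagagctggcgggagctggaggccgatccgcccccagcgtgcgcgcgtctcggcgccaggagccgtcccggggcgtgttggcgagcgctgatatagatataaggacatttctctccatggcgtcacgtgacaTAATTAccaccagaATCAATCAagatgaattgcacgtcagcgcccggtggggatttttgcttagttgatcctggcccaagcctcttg
Motifs were searched on both strands and overlapping matches were counted. The TATA box was read as TATAAA and the CCAAT box by its name. The core bound by many homeodomains was read as TAATTA. A composite of Pbx and Hox proteins was read as TGATTNAT, and the hexamer bound by retinoic acid receptors as AGGTCA. Hoxd8 and Hoxd10 each hold 1 CCAAT box and 1 receptor hexamer. In Hoxd9 none of the 5 motifs was found, and the Hoxd11 window holds 1 homeodomain core and 1 composite. The G and C content was 44.4% in Hoxd8, 65.2% in Hoxd9, 65.6% in Hoxd10 and 60.4% in Hoxd11, against a median of 52.4% over 32851 promoter windows of 27025 genes. Of all windows, 33.8% hold a CCAAT box, 14.0% the receptor hexamer, 12.4% a TATA box, 4.8% the homeodomain core and 2.8% the composite. Over the 10 windows of the 9 Hoxd genes, 7 hold a CCAAT box, 4 the receptor hexamer, 2 a TATA box, 2 the homeodomain core and 1 the composite.

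The Hoxd cluster set the 4 groups apart. Its summed level, in FPKM (fragments normalised to transcript length and sequencing depth), was 0.03 ± 0.036 in NC (mean ± SD, n = 3, as below), 0.48 ± 0.092 in HOMING, 4.59 ± 0.18 in BM and 23.6 ± 7.1 in TUMOR. The Hoxd share of all Hox FPKM was 0.0121% in NC, 0.208% in HOMING, 2.05% in BM and 9.27% in TUMOR. All 5 tested genes (Hoxd3, Hoxd4, Hoxd8, Hoxd9 and Hoxd10) followed the order NC, HOMING, BM, TUMOR from low to high. Their libraries did not overlap between neighbouring groups, with 1 exception, Hoxd3 in NC and HOMING. Such separation is frequent here: of all tested genes, 72.6% did not overlap in HOMING against NC, 69.6% in BM against NC, 72.8% in TUMOR against NC, 72.3% in BM against HOMING, 66.9% in TUMOR against HOMING and 75.8% in TUMOR against BM. The 3 TUMOR libraries summed to 31.8, 19.0 and 20.0 FPKM, and without replicate 1 the mean was 19.5. Hoxd3 and Hoxd4 passed the filter through TUMOR alone and the other 3 through BM and TUMOR, so these genes had to be higher there than in the groups that stayed under 1 FPKM. Those are NC and HOMING for all 5 and also BM for Hoxd3 and Hoxd4, and the number of genes is no support for the difference.

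**Figure D1:**
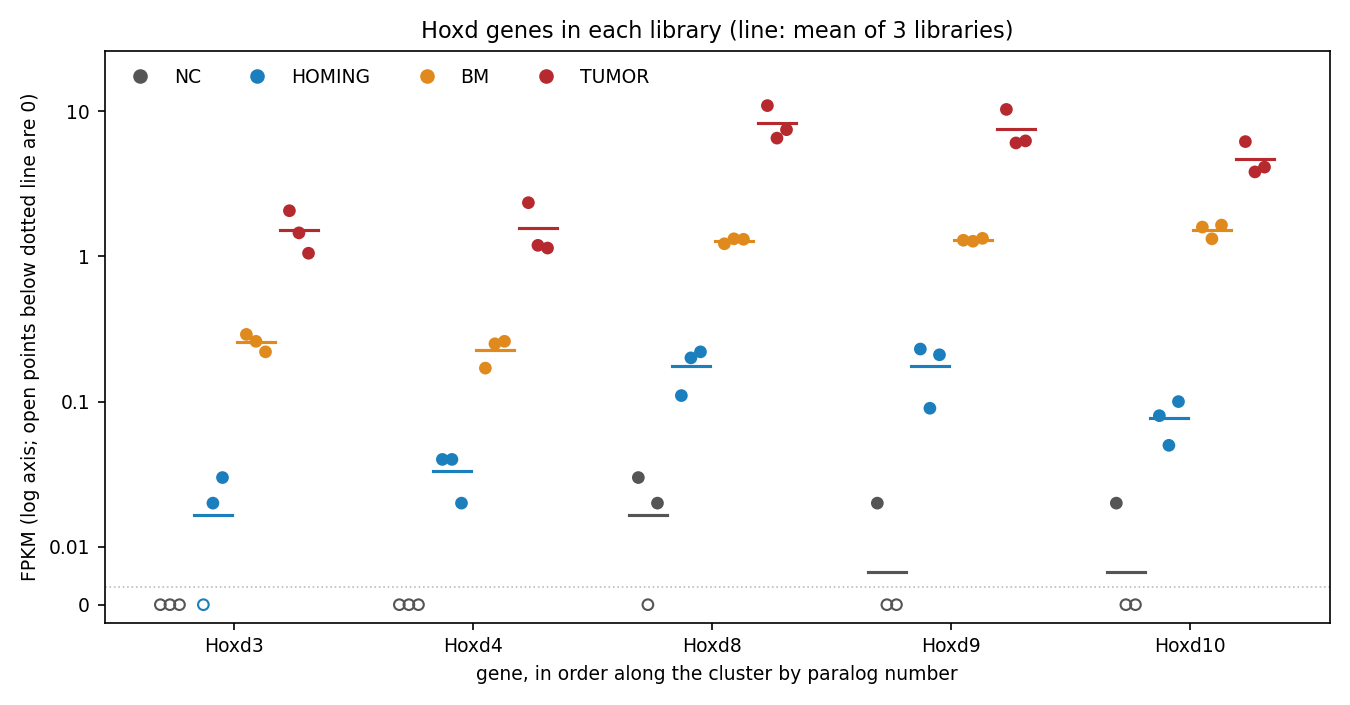
Level of each tested Hoxd gene (x axis, by paralog number) in each of the 12 libraries (y axis, FPKM on a log axis, with open points for a value of 0) and the mean of each group as a line. The TUMOR libraries lie highest and the BM libraries next for each of the 5 genes, and TUMOR replicate 1 is the highest point of each.

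Hoxd8 and Hoxd9, which are expressed in the trunk and the growing limb, reached the highest levels. Hoxd8 read 0.03, 0 and 0.02 FPKM in NC, 0.11, 0.2 and 0.22 in HOMING, 1.22, 1.32 and 1.31 in BM, and 10.9, 6.51 and 7.44 in TUMOR. The 4 groups did not overlap. Against NC its log2 fold change was 3.32 ± 0.66 (SE) in HOMING, 6.25 ± 0.46 in BM and 8.90 ± 0.40 in TUMOR. In HOMING the adjusted p was 0.000596 (edgeR quasi-likelihood F-test adjusted by Benjamini and Hochberg over 12314 genes, the test used throughout). Hoxd8 passed the filter through BM and TUMOR and had to be higher there than in NC, so no p is given for these groups. Hoxd9 read 0.02, 0 and 0 FPKM in NC, 0.23, 0.09 and 0.21 in HOMING, 1.29, 1.27 and 1.33 in BM, and 10.3, 6.03 and 6.23 in TUMOR. NC held 2 counts of Hoxd9 over its 3 libraries, against 48 in HOMING, 359 in BM and 2014 in TUMOR. The ratio to NC of counts scaled by library totals was 24.9 (95% exact interval 6.52 to 211) in HOMING, 183 (50.3 to 1520) in BM and 1060 (293 to 8750) in TUMOR. These intervals cover counting error alone. With TMM library sizes, which the fits use, the ratios were 23.0, 173 and 973. Both NC counts of Hoxd9 lie in NC replicate 1, and without that library the fitted log2 value in HOMING against NC went from 4.29 to 6.99, which is set against 0 counts and is no bound.

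Hoxd10, a gene of the limb and the lumbar region, read 0.02, 0 and 0 FPKM in NC, 0.08, 0.05 and 0.1 in HOMING, 1.59, 1.32 and 1.64 in BM, and 6.16, 3.81 and 4.11 in TUMOR. Its ratio to NC, where it had 2 counts, was 9.33 (2.23 to 82.9) in HOMING, 186 (51.0 to 1540) in BM and 573 (158 to 4740) in TUMOR. Both of these counts again lie in NC replicate 1, without which the fitted log2 value in HOMING against NC went from 2.90 to 5.60. Among the 5 genes it stood closest between both co-injected groups: BM reached 32.3% of the TUMOR level of Hoxd10, and 14.6 to 17.3% for the other 4. HOMING reached 1.1 to 2.35% of the TUMOR level over the 5 genes.

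The low-numbered Hoxd genes followed at lower levels. Hoxd4, active from the hindbrain backwards, was at 0 in all 3 NC libraries, read 0.04, 0.04 and 0.02 FPKM in HOMING, 0.17, 0.25 and 0.26 in BM, and 2.34, 1.19 and 1.14 in TUMOR. Taking the NC group at its floor of 3 counts, it was at least 7.25-fold higher in HOMING, 40.5-fold in BM and 311-fold in TUMOR by library totals, and at least 6.72-fold, 38.2-fold and 286-fold with TMM library sizes. Hoxd3, its neighbour in the cluster, was at 0 in NC, read 0, 0.02 and 0.03 FPKM in HOMING, 0.29, 0.26 and 0.22 in BM, and 2.06, 1.45 and 1.05 in TUMOR. It was at least 15.0-fold higher in BM and 110-fold in TUMOR than in NC by library totals, and at least 14.1-fold and 101-fold with TMM library sizes. HOMING held 3 counts of Hoxd3 and did not pass the test against NC (adjusted p = 0.143, edgeR). Transcripts that the authors assembled and that have no RefSeq accession carried 74.7% of the Hoxd4 FPKM and 70.1% of the Hoxd3 FPKM. With RefSeq transcripts alone neither gene passed the filter. The RefSeq transcript of Hoxd3 read 0, 0.003, 0.04 and 0.493 FPKM in NC, HOMING, BM and TUMOR, and that of Hoxd4 read 0, 0, 0.1 and 0.36, so the Hoxd4 value in HOMING against NC rests on the assembled transcript alone.

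Between the 2 groups from marrow, BM was higher than HOMING in each of these 5 genes. The log2 fold change was 4.32 ± 0.35 (SE) for Hoxd10, 2.93 ± 0.30 for Hoxd8, 2.90 ± 0.34 for Hoxd9 and 2.49 ± 0.44 for Hoxd4. For Hoxd4 the adjusted p was 0.000614 (edgeR). Hoxd8, Hoxd9 and Hoxd10 passed the filter through BM and TUMOR and had to be higher in BM than in HOMING, so no p is given for them. Hoxd3 had a ratio of 14.4 (95% exact interval 4.63 to 72.7). TUMOR stood above BM by 2.90 ± 0.30 for Hoxd4, 2.84 ± 0.34 for Hoxd3, 2.65 ± 0.23 for Hoxd8, 2.49 ± 0.26 for Hoxd9 and 1.59 ± 0.23 for Hoxd10 on the log2 scale. The adjusted p was 5.13e-07 for Hoxd8, 2.55e-06 for Hoxd9 and 4.86e-05 for Hoxd10 (edgeR), while Hoxd3 and Hoxd4, which passed the filter through TUMOR alone, had to be higher there. TUMOR stood above HOMING by 5.39 to 5.90 in Hoxd4, Hoxd8, Hoxd9 and Hoxd10, and by a ratio of 107 (36.1 to 519) in Hoxd3. The 6 comparisons share libraries, so they are not independent of one another.

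The posterior end of the cluster stayed near 0. Hoxd11, which patterns the forearm and lower leg, had 0 counts in NC and HOMING, 2 in BM and 10 in TUMOR, and Hoxd12 had 0, 0, 1 and 4. The genes on both sides of the cluster showed no such order: Mtx2, a mitochondrial membrane protein gene, read 36.2, 38.0, 40.4 and 36.2 FPKM in NC, HOMING, BM and TUMOR, and Lnpk, an endoplasmic reticulum gene, read 4.04, 3.81, 4.50 and 3.90. Evx2, a homeobox gene beside Hoxd13, had 0 counts in the first 3 groups and 3 in TUMOR. Hoxd3os1, an antisense RNA in the cluster that was looked up after the values were seen, read 0, 0.03, 0.0667 and 0.297 FPKM. The sources used here do not say that counting used strand, so reads of Hoxd3 and Hoxd3os1 cannot be told apart.

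Markers of other cell types also differed between the groups. The epithelial and carcinoma list of 11 genes summed to 2.34 to 4.6 FPKM in NC, 6.14 to 6.57 in HOMING, 6.45 to 7.08 in BM and 70.1 to 115 in TUMOR. Of its 2 tested genes, Krt8, a keratin of simple epithelia named after its values were seen, had the same order as the Hoxd genes: 0.0767 ± 0.064, 1.38 ± 0.25, 6.29 ± 0.29 and 64.6 ± 25.3 FPKM in NC, HOMING, BM and TUMOR. TUMOR replicate 1 was again highest, at 93.8 FPKM against 48.1 and 51.9. Defining epithelial genes of the list were at or near 0 in all groups: Sftpc was at 0 in NC, HOMING and TUMOR, and group means were at most 0.0367 FPKM for Epcam, 0.0633 for Cdh1, 0.0167 for Cldn4 and 0.0233 for Cldn7. Krt19, a second keratin of the list, read 2.72, 4.61, 0.37 and 21.6 FPKM and did not have the Hoxd order. The part of these markers in the Hoxd values was not tested. In bulk RNA, a change in the share of cells of a type and a change in RNA per cell cannot be told apart.

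The stromal label was checked against 16 mesenchymal markers, whose sum was 2070 to 2340 FPKM in NC, 2120 to 2190 in HOMING, 1620 to 1730 in BM and 2650 to 2760 in TUMOR. Vim was the largest part of this sum, at 1270, 1440, 866 and 1930 FPKM in NC, HOMING, BM and TUMOR. Like the sum, it was highest in TUMOR and lowest in BM, so the sum mostly reads 1 gene. Col1a1, the main collagen of fibroblasts and bone, read 270, 179, 212 and 211 FPKM, while Thy1, Nt5e, Lepr and Lum stayed under 1 FPKM on average in each group. HOMING held blood cell RNA: the neutrophil list of 12 genes summed to 1710 to 2500 FPKM there, 49.5 to 57.9 in BM, 1.3 to 2.74 in NC and 0.9 to 2.54 in TUMOR. S100a8, a calcium-binding protein of neutrophils, read 834 ± 191 FPKM in HOMING, 21.3 ± 3.0 in BM, 0.577 ± 0.21 in NC and 0.68 ± 0.36 in TUMOR. Ptprc, the pan-leukocyte antigen CD45, read 0.00333, 7.50, 0.303 and 0.00667 FPKM in NC, HOMING, BM and TUMOR. The monocyte and macrophage list summed to 477 to 752 FPKM in HOMING, 69.6 to 70.7 in BM, 25.0 to 25.5 in TUMOR and 13.5 to 19.4 in NC. The haematopoietic stem and progenitor list summed to 171 to 217 FPKM in NC, 155 to 169 in HOMING, 122 to 126 in BM and 98.3 to 129 in TUMOR. Cd34 carried most of this sum, at 171, 94.3, 100 and 101 FPKM in NC, HOMING, BM and TUMOR. Cd34 and Mecom had their highest mean in NC and the other members in HOMING, among them Spi1 at 0.217, 40.9, 2.05 and 0.11 FPKM. The erythroid and megakaryocyte list summed to 1820 to 2970 FPKM in HOMING and to at most 7.55 in the other groups. The lymphocyte, endothelial and skeletal muscle lists summed to at most 2.91, 4.53 and 0.85 FPKM in any library. Blood cells express Hox genes of their own, and the part of these cells in the HOMING values was not tested. Library totals were 43232145 to 46166519 expected counts, and libraries correlated at 0.992 to 0.999 within groups and 0.895 to 0.968 between groups over log2 values.

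Over the 28 tested Hox genes, 4 were called higher and 0 lower in HOMING against NC, at an adjusted p under 0.05 and at least 2-fold. Of all tested genes 14.3% were called there, 9.64% higher and 4.69% lower. BM against NC gave 5 higher and 1 lower, beside 11.5% of all genes (7.93% higher, 3.57% lower). TUMOR against NC also gave 5 and 1, beside 16.4% (9.75% and 6.65%). BM against HOMING gave 5 and 0, beside 10.4% (3.71% and 6.68%). TUMOR against HOMING gave 5 and 0, beside 10.8% (4.42% and 6.37%), and TUMOR against BM 6 and 0, beside 14.2% (6.95% and 7.28%). Of the Hox genes tested, 14.3% to 21.4% were called per comparison, and in HOMING against NC this was the share of all genes. Hoxd made up all calls but 3, which were Hoxc13 in 2 comparisons and Hoxc5 in 1. The other 21 tested members were called in none. The 4 calls in HOMING against NC rest on 18 to 48 counts per gene over 3 libraries, and limma on log2(FPKM + 1), which flattens low values, called 0 there. With limma on log2(FPKM + 0.1), Hoxd4 (0.411) and Hoxd10 (0.723) were no longer called in HOMING against NC, and with the transcript of highest mean FPKM Hoxd8 was not, at 0.0. Limma on log2(FPKM + 1) also ended the calls of Hoxd3 and Hoxd4 in BM against NC, of Hoxd3, Hoxd4, Hoxd8 and Hoxd9 in BM against HOMING, and of Hoxd3 in TUMOR against BM.

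**Figure D2:**
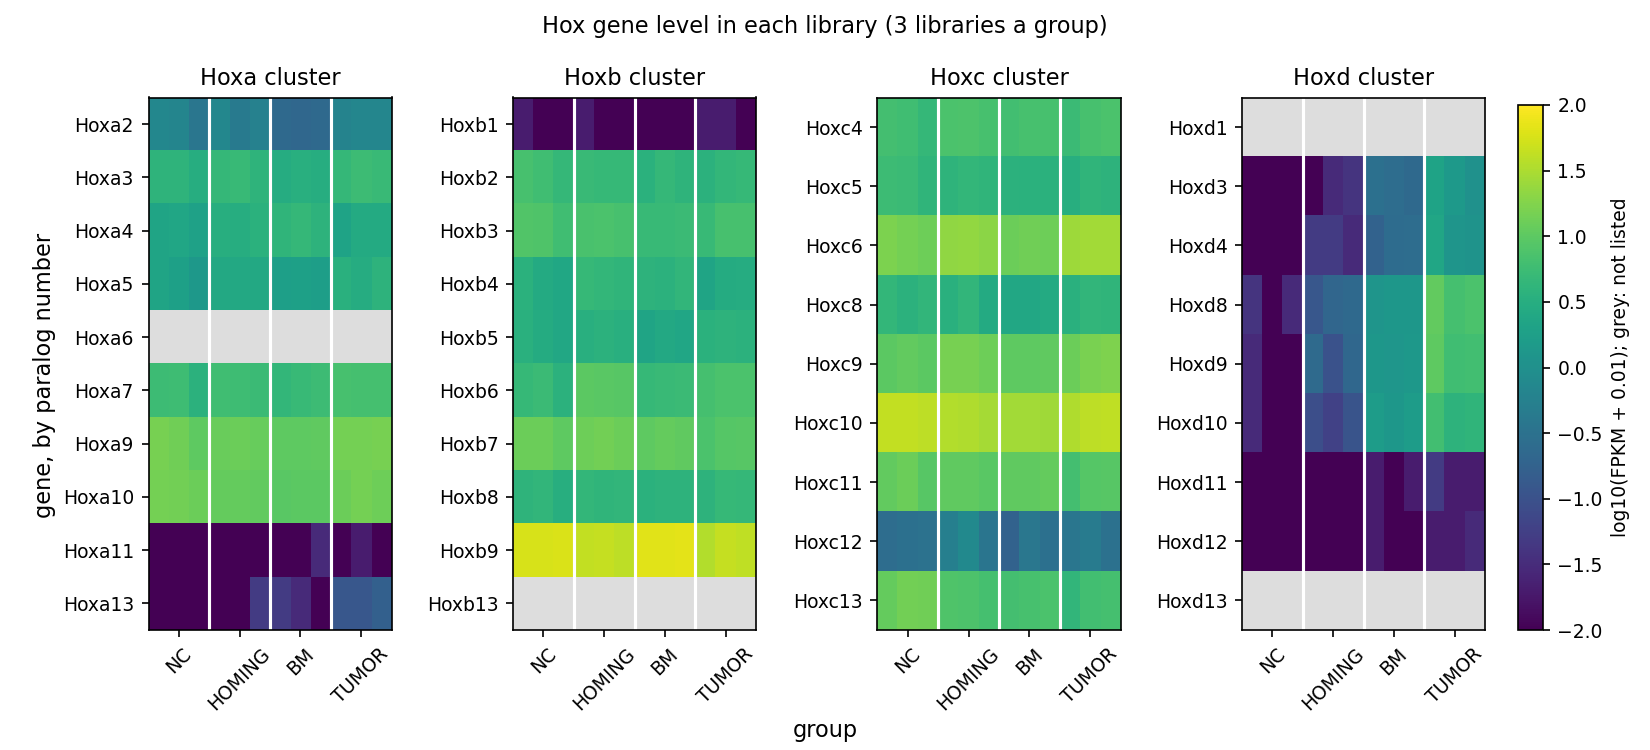
Level of Hox genes (rows, by paralog number, 1 panel for each cluster) in the 12 libraries (columns, 3 for each group), coloured from dark (low) to yellow (high) on the log10(FPKM + 0.01) scale, with genes not listed in grey. Hoxb9 and Hoxc10 are the brightest rows, and Hoxd3 to Hoxd10 go from dark in NC through HOMING and BM to green in TUMOR, while Hoxd11 and Hoxd12 stay dark.

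Outside Hoxd, the 23 tested genes of the Hoxa, Hoxb and Hoxc clusters kept within narrow bounds. None was called in 3 comparisons (HOMING against NC, BM against HOMING and TUMOR against HOMING), and 1 was called in each of the other 3. Their median log2 fold change was 0.06 in HOMING against NC, -0.27 in BM against NC, 0.07 in TUMOR against NC, -0.21 in BM against HOMING, 0.04 in TUMOR against HOMING and 0.43 in TUMOR against BM. The median of all tested genes was within 0.02 of 0 in each. Smaller differences were frequent, as they were among all genes: at an adjusted p under 0.05 with any fold (edgeR), 14 of the 23 were higher and 5 lower in TUMOR against BM, where 69.6% of all genes passed. In BM against NC, 2 were higher and 13 lower, where 66.6% of all genes passed. The counts were 6 and 7 in HOMING against NC (70.0% of all genes), 7 and 7 in TUMOR against NC (73.6%), 2 and 12 in BM against HOMING (58.1%), and 6 and 5 in TUMOR against HOMING (55.0%).

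**Figure D3:**
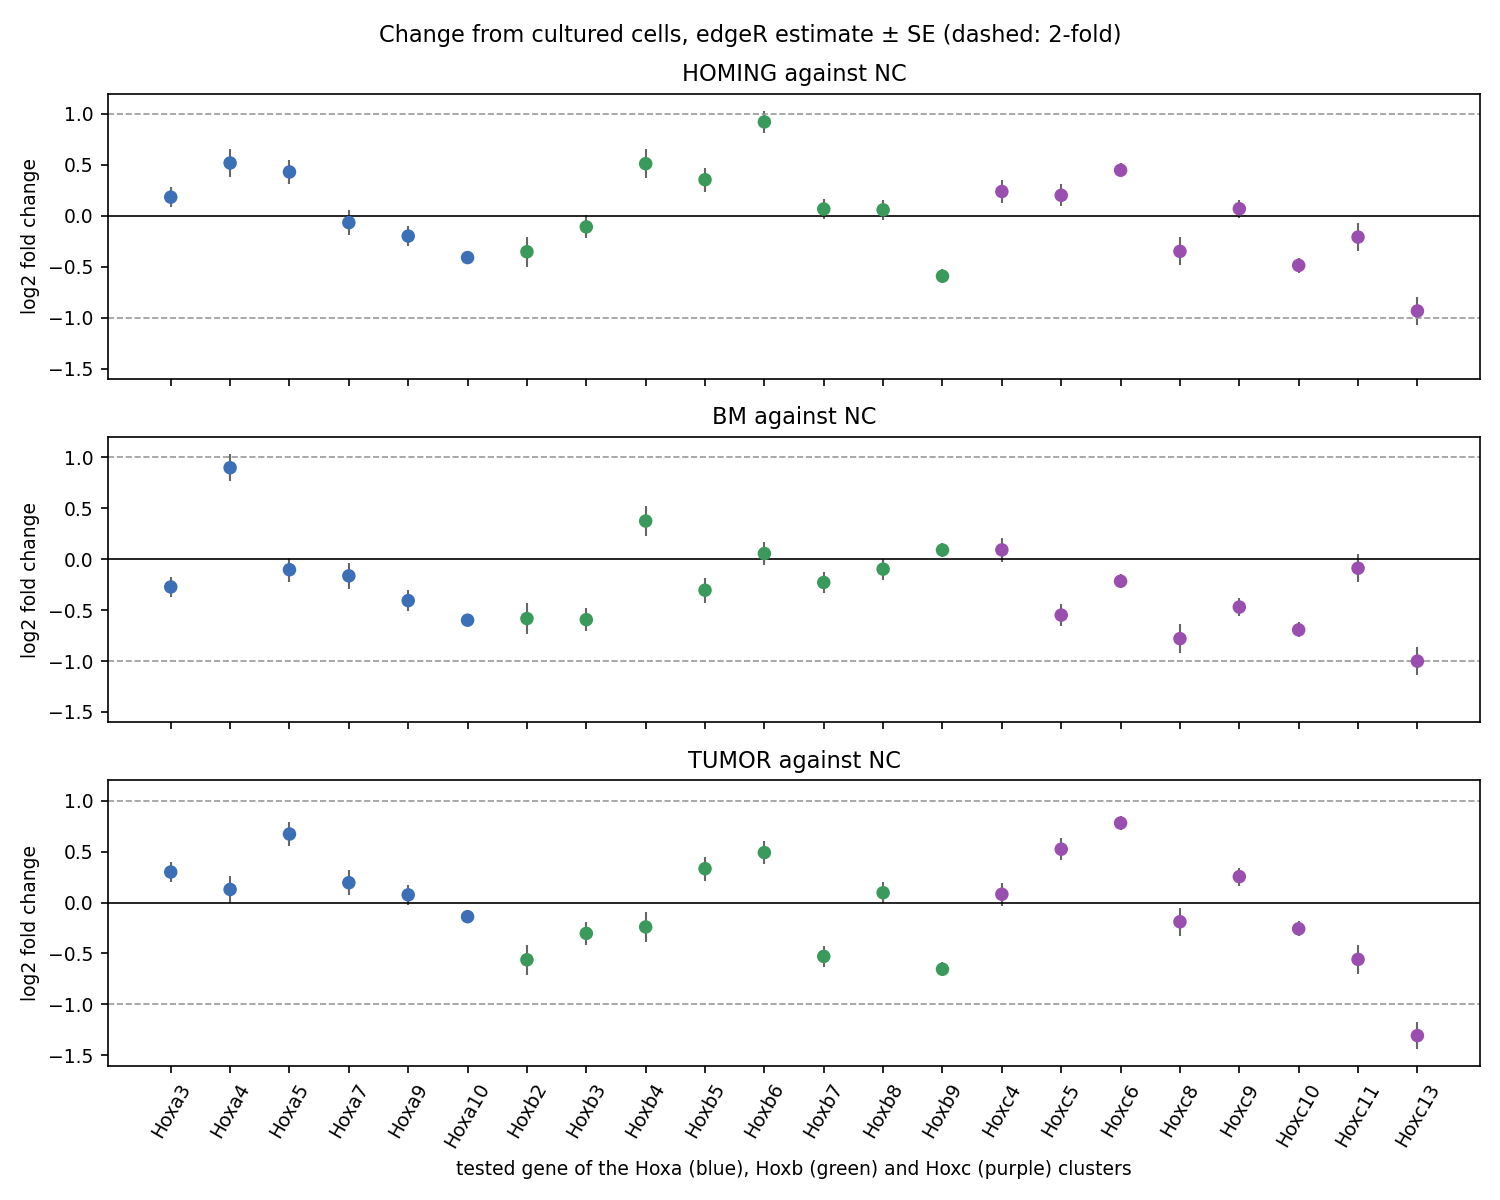
Log2 fold change against NC (y axis, edgeR estimate ± SE, with 2-fold as dashed lines) of tested Hoxa, Hoxb and Hoxc genes (x axis, coloured by cluster), 1 panel for each of HOMING, BM and TUMOR. Hoxc13 lies on the lower line in BM and below it in TUMOR, and all other points shown lie between the lines.

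Hoxc13, the last gene of its cluster and a regulator of hair and nail keratins, was highest in culture. It read 11.5, 13.9 and 13.4 FPKM in NC, 7.85, 7.54 and 6.55 in HOMING, 6.46, 6.78 and 7.27 in BM, and 4.27, 6.16 and 6.67 in TUMOR. The NC libraries lay above all others, and the remaining 3 groups overlapped. Against NC it fell by 1.31 ± 0.14 (SE) on the log2 scale in TUMOR and by 1.00 ± 0.13 in BM (adjusted p = 1.97e-06 and 3.16e-05, edgeR), and the value of -0.93 in HOMING stayed short of 2-fold. The BM call sits on the 2-fold bound and was lost without NC replicate 2 (-0.95), NC replicate 3 (-0.96), BM replicate 1 (-0.96) or BM replicate 2 (-0.998). Without NC replicate 1 the HOMING value passed as well, at -1.02.

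Hoxc5, a central gene of the same cluster, was called higher in TUMOR against BM, with 10088 against 4799 counts over 3 libraries and a log2 fold change of 1.07 ± 0.11 (adjusted p = 2.15e-06, edgeR). Its summed FPKM did not separate BM from TUMOR: it was 5.52, 5.37 and 4.07 in NC, 3.95, 4.38 and 4.11 in HOMING, 3.77, 3.57 and 3.63 in BM, and 3.2, 4.06 and 3.78 in TUMOR. The gene is listed with 2 transcripts. The RefSeq transcript of 2730 bases read 3.34 ± 0.50 FPKM in NC, 1.85 ± 0.093 in HOMING, 2.47 ± 0.13 in BM and 0.6 ± 0.095 in TUMOR. A transcript of 24494 bases that the authors assembled read 1.65, 2.29, 1.18 and 3.08 FPKM, and its length means that it gives many more counts per FPKM. With RefSeq transcripts alone the change in TUMOR against BM was reversed, to -2.07, and the gene was also called lower in TUMOR against NC (-2.57) and against HOMING (-1.62). Without TUMOR replicate 2 the change over both transcripts was 0.999 and no longer a call. A transcript of this length can span neighbouring genes, and its place on the genome was not analysed here.

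**Figure D4:**
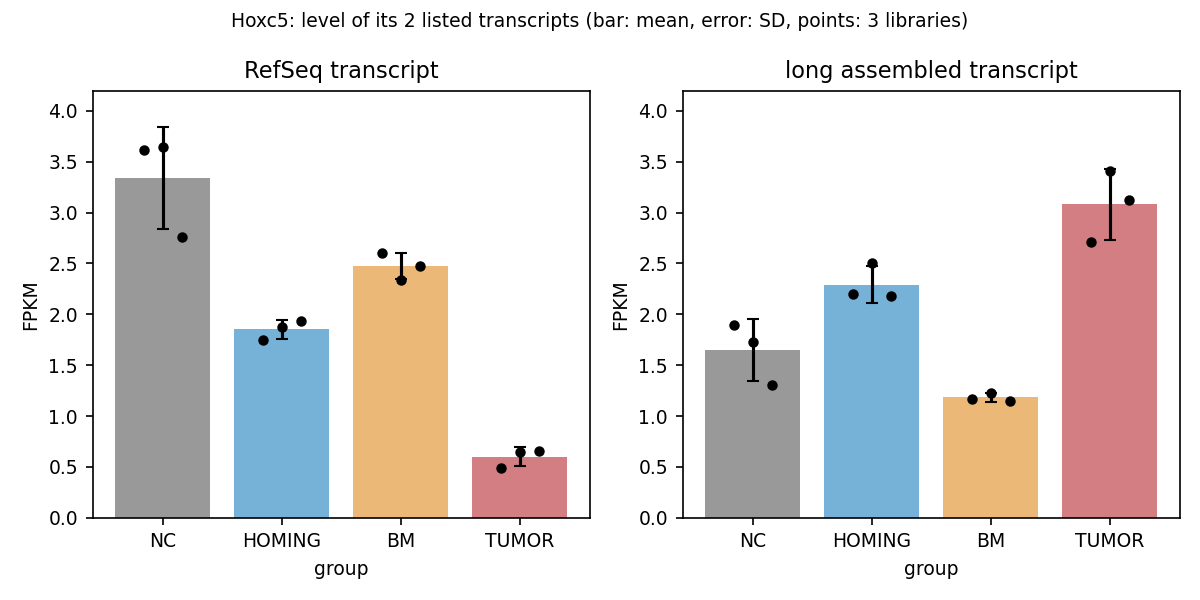
FPKM of the RefSeq transcript of Hoxc5 (left) and of the long transcript assembled by the authors (right) in the 4 groups, as mean, SD and 3 libraries. From BM to TUMOR the left bars go from 2.47 to 0.6 and the right bars from 1.18 to 3.08.

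The most abundant members were posterior. Hoxb9, a gene of the thoracic region and the forelimb, read 58.0 ± 1.3 FPKM in NC, 42.1 ± 1.9 in HOMING, 66.9 ± 1.3 in BM and 40.2 ± 5.0 in TUMOR. Hoxc10, a lumbar and hindlimb gene, read 42.1 ± 1.8, 32.4 ± 2.8, 27.5 ± 0.29 and 38.4 ± 4.0. Both varied by less than 2-fold. Together they held 41.0% of all Hox FPKM in NC and 42.2% in BM, against 32.1% in HOMING and 30.4% in TUMOR. The posterior share of all Hox FPKM, which includes both genes, had the same split. It was 65.9 ± 2.4% in NC and 65.0 ± 0.72% in BM, against 56.2 ± 0.64% in HOMING and 57.4 ± 0.94% in TUMOR. Hoxb9, the most abundant posterior gene, had this split in its own level, while Hoxc10 was lowest in BM. The share without Hoxb9 was not computed, so the split is not shown for the posterior genes as a set. The lowest library of NC and BM had 63.9% and the highest of HOMING and TUMOR had 57.9%. The split was one of share and not of level. In summed FPKM the posterior genes stood at 161.1 ± 5.85 in NC, 130.6 ± 8.06 in HOMING, 145.5 ± 2.82 in BM and 148.2 ± 11.1 in TUMOR. TUMOR thus did not lie below BM. The shares are a description, and no test was made on them. TUMOR replicate 1, the highest for Hoxd, had the lowest sums of its group for Hoxa (46.6 FPKM), Hoxb (66.7) and Hoxc (95.4).

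**Figure D5:**
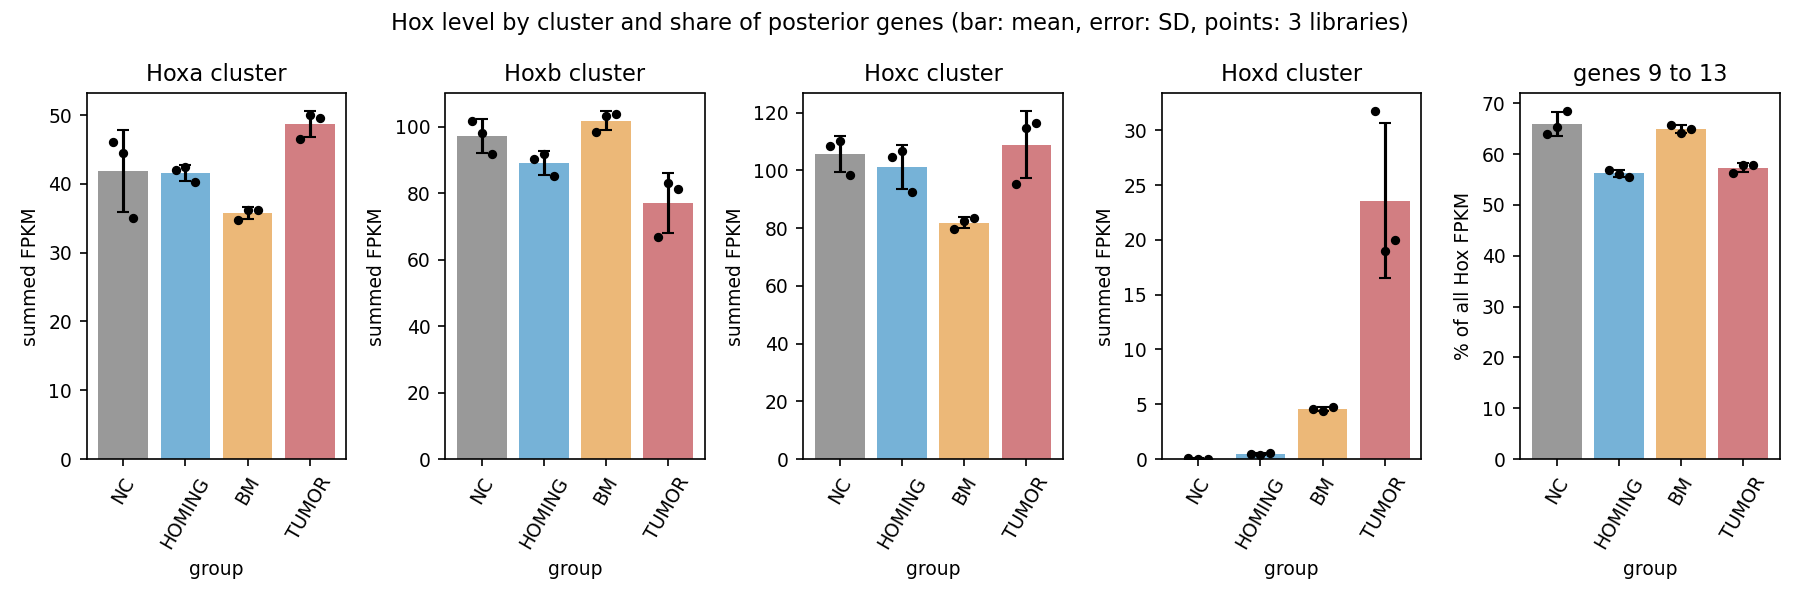
Summed FPKM of each Hox cluster and the percent of all Hox FPKM in paralog groups 9 to 13 (y axes, each from 0) by group (x axes), as mean (bar), SD (error bar) and 3 libraries (points). Hoxd runs from 0 in 1 NC library to 31.8 FPKM in TUMOR replicate 1, and the posterior share is lower in HOMING and TUMOR than in NC and BM.

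The summed level of the central genes had the reverse of the split in posterior share: they stood at 64.4 ± 8.2 FPKM in NC, 82.9 ± 3.8 in HOMING, 64.3 ± 2.6 in BM and 90.2 ± 2.7 in TUMOR. Hoxc6, a thoracic gene, read 14.5 ± 1.6 FPKM in NC, 21.4 ± 1.3 in HOMING, 13.2 ± 0.57 in BM and 27.2 ± 1.0 in TUMOR, and its log2 value of 0.997 ± 0.071 in TUMOR against BM lay just under the bound for a call. It passed the bound without BM replicate 2 (1.03) or TUMOR replicate 1 (1.02). Hoxb6 read 4.60 ± 0.77, 9.40 ± 0.37, 5.06 ± 0.34 and 7.04 ± 0.43 FPKM in NC, HOMING, BM and TUMOR, with a log2 value of 0.92 ± 0.11 in HOMING against NC that passed 2-fold without NC replicate 2 (1.03). Hoxa4 read 2.13 ± 0.18, 3.29 ± 0.24, 4.19 ± 0.41 and 2.53 ± 0.40 FPKM and had its highest value in BM. The anterior genes summed to 19.3 ± 3.1, 18.8 ± 0.80, 14.3 ± 0.76 and 19.9 ± 1.6 FPKM.

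By cluster, Hoxa summed to 41.9 ± 6.0 FPKM in NC, 41.6 ± 1.2 in HOMING, 35.7 ± 0.87 in BM and 48.7 ± 1.9 in TUMOR. Its main members were Hoxa9 and Hoxa10, which act in limbs, uterus and blood stem cells. Hoxa9 read 12.9 ± 2.6, 12.1 ± 0.52, 10.3 ± 0.19 and 14.8 ± 0.41 FPKM, and Hoxa10 read 13.7 ± 1.1, 11.2 ± 0.25, 9.68 ± 0.26 and 13.4 ± 0.95. Hoxa3, Hoxa5 and Hoxa7 read between 1.79 and 6.67 FPKM as group means. Hoxb summed to 97.2 ± 5.0, 89.1 ± 3.6, 101.8 ± 2.9 and 77.0 ± 9.0 FPKM, and besides Hoxb9 its highest member was Hoxb7, at 11.9 ± 1.4, 13.3 ± 0.84, 10.6 ± 0.54 and 8.46 ± 0.99. Hoxb2, Hoxb3, Hoxb4, Hoxb5 and Hoxb8 had group means of 2.34 to 7.28 FPKM. Hoxc summed to 105.7 ± 6.3, 101.2 ± 7.7, 81.9 ± 1.9 and 108.9 ± 11.7 FPKM. Within it, Hoxc9 read 10.2 ± 0.66, 14.4 ± 1.3, 10.3 ± 0.34 and 15.0 ± 2.0, Hoxc11 read 10.9 ± 1.9, 10.2 ± 0.66, 10.9 ± 0.49 and 8.09 ± 1.5, and Hoxc4 and Hoxc8 had group means of 2.56 to 7.21. Hoxc had the highest sum of the 4 clusters in NC, HOMING and TUMOR, and Hoxb in BM.

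Among the members too low to test, Hoxa13, which patterns the hand, foot and urogenital tract, had 0 counts in NC, 2 in HOMING, 3 in BM and 21 in TUMOR. Hoxa2, which patterns the jaw and ear, read 0.567 ± 0.18, 0.573 ± 0.14, 0.217 ± 0.0058 and 0.65 ± 0.035 FPKM in NC, HOMING, BM and TUMOR. Hoxc12 read 0.28 to 0.547 FPKM as group means. Hoxa11 had at most 2 counts in a group, and Hoxb1 at most 2. The depth of these libraries cannot show a difference for the last 2. When the filter was lifted, Hoxa13 was called higher in TUMOR against NC, HOMING and BM, and Hoxd11 against NC and HOMING. Hoxa2 was called lower in BM against NC and HOMING and higher in TUMOR against BM. The Hoxd11 calls rest on 10 counts in TUMOR against 0. The share of all genes called without the filter is not given here.

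Genes that act with or on the Hox clusters were read as lists. Among 10 tested Hox cofactors of the TALE class, Tgif1, a repressor of retinoic acid and TGF-beta targets, was the only call: it read 127.5 ± 7.1 FPKM in NC, 69.8 ± 3.2 in HOMING, 112.3 ± 4.9 in BM and 51.6 ± 2.0 in TUMOR, and fell by 1.42 in TUMOR against NC and by 1.17 against BM on the log2 scale. That is 1 of 10 in TUMOR against NC, where 16.4% of all genes were called. None of the Meis, Pbx and Pknox partner genes was called. Of 30 tested Polycomb genes, 3 were higher and 2 lower in TUMOR against NC, near the 16.4% of all genes called there, and their median log2 value was 0.17 against 0.01 over all genes. Cbx7, a reader of the repressive histone mark, rose in TUMOR from 1.99 ± 0.21 to 5.60 ± 1.0 FPKM, and Jarid2, which recruits the complex, from 1.54 ± 0.089 to 5.60 ± 0.41. In BM against HOMING 0 of the 30 were called. Of the 18 Trithorax and demethylase genes, 0 were called in any of the 6 comparisons by edgeR at these bounds, and the 2 most abundant were Dpy30 and Hcfc1.

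Of 10 tested genes of retinoic acid supply and response, BM against NC gave 3 higher and 1 lower, and TUMOR against BM 1 higher and 3 lower, beside 11.5% and 14.2% of all genes called. Rdh10, which makes retinal for retinoic acid synthesis, rose from 5.98 ± 0.52 FPKM in NC to 13.8 ± 0.63 in BM and was 5.97 ± 0.37 in TUMOR. Cyp26b1, which breaks retinoic acid down, had the same form: 1.84 ± 0.072, 1.58 ± 0.061, 4.03 ± 0.14 and 1.72 ± 0.15 FPKM in NC, HOMING, BM and TUMOR. Rara, a retinoic acid receptor, rose from 10.6 ± 0.71 FPKM in BM to 23.9 ± 1.2 in TUMOR. Crabp2, a carrier of retinoic acid, fell from 13.8 ± 1.7 FPKM in NC to 4.38 ± 0.54 in HOMING, 4.74 ± 0.42 in BM and 4.47 ± 0.48 in TUMOR. Cdx2 had no listed transcript, and Cdx4 was at 0 in NC, HOMING and BM.

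Other genes of body position were called in both directions, with 4 higher and 3 lower of 22 in TUMOR against NC, beside 9.75% higher and 6.65% lower among all genes. Tbx4, which marks the hindlimb and lung, had the Hoxd order in part: 0.323 ± 0.046 FPKM in NC, 0.333 ± 0.071 in HOMING, 0.757 ± 0.021 in BM and 1.83 ± 0.47 in TUMOR. It is among the 4 higher genes, but it passed the filter through TUMOR alone and had to be higher there than in the other groups. Tbx3, a limb and mammary gene, peaked in BM, at 27.2 ± 1.0 FPKM against 6.70 ± 0.47 in NC, 14.1 ± 0.31 in HOMING and 5.40 ± 0.68 in TUMOR. Dlx1 and Dlx2, neighbours that pattern the jaw and forebrain, rose in TUMOR against NC by 2.04 ± 0.14 and 1.28 ± 0.11 on the log2 scale, from 1.09 to 4.87 and from 6.99 to 18.5 FPKM. Beside the clusters, 9 transcripts were tested and 0 were higher and 2 lower in TUMOR against NC, beside 16.4% of all genes called. These were Hotairm1, a long noncoding RNA of the Hoxa cluster with 23.0 ± 2.4 FPKM in NC and 12.5 ± 1.8 in TUMOR, and Nfe2l1, a stress response gene near the Hoxb cluster, with 184.1 ± 9.3 and 62.8 ± 2.7. Reads of Hotairm1 and of overlapping Hox genes cannot be told apart without strand.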

How the data were processed

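RNA from sorted cells was sequenced from libraries made with the Illumina TruSeq kit, per the labels, in 12 libraries of 4 groups. Reads were mapped with Bowtie 0.12.2 to mm8, per the submitters' processing notes, while the sources used here name no counting program. In the deposited tables the authors give, per transcript, expected counts (estimated reads, not normalized) and FPKM (scaled by the authors to transcript length and mapped fragments, lowest value listed 0.01). Transcripts not listed were set to 0, and both units were summed per gene. Of 19679 Entrez numbers 19629 matched a symbol, and 1322 genes without one took 2.08 to 2.65% of the counts.

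Counts were rounded and fitted in edgeR 4.0.16 (R 4.3.3) in 1 model of the 4 groups, with TMM scaling (factors 0.929 to 1.039), on the 12314 genes that reached 1 FPKM in 3 or more libraries. The two-sided quasi-likelihood F-test was adjusted by Benjamini and Hochberg over all of them, and a call needs an adjusted p under 0.05 and a log2 change beyond 1 in either direction. FPKM values, sums and shares carry no test. Against 0 counts in a group, folds are bounds from a floor of 3 counts over the group, and for 1 to 3 counts a ratio with an exact 95% interval is given, both with counts scaled by library totals unless TMM is named. On simulated data with 100 genes changed 3-fold and 100 changed 6-fold, edgeR recovered 100% of both in each of the 6 comparisons, with 0 or 1 false calls. The changed genes were drawn from those well above the floor, and all genes were given the same spread. The recovery therefore does not speak for genes with few counts in a group, such as the Hoxd genes in NC and HOMING.

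All 35 listed Hox genes are members, and those called in any comparison are given per library. Up to 4 called genes with the smallest adjusted p are named per related list, or the 2 most abundant where none was called. Of the marker lists, sums, Ptprc, S100a8 and Col1a1 were planned, and other genes of these lists were added. Values of 1 member and of 1 gene of a related list are not reported here by name, and both remain in the counts and sums. The members and the lists were chosen with earlier results of these data known. Promoter windows of 22 Hox genes were found in the RefSeq table of GRCm38.p6 by symbol. Alternatives were DESeq2 1.42.0, limma 3.58.1 with a pseudocount of 1 or 0.1 FPKM, other scalings, no filter, the transcript with the highest mean FPKM, the compared groups alone, a replicate block, no minimum fold, counts in place of FPKM, leaving out each library and, added after seeing the data, RefSeq transcripts alone and TMM library sizes for the bounds. Tables and plots used Python 3.11.15, pandas 2.3.3 and matplotlib 3.10.9.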

Additional observations from a re-analysis of the deposited data

How the results depend on the processing

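The 32 pairs of a called Hox gene and a comparison were computed under 714 combinations with an alternative. The direction and the side of the threshold were kept in 684, the call was lost in 28, and 2 were reversed. The setting with no minimum fold uses the main fit, so its 32 pairs were kept by construction. Leaving out a library of a group outside a comparison left the compared libraries as they were. The total is thus no measure of how stable the calls are. The 714 leave out Hoxd3 and Hoxd4 with the transcript of highest mean FPKM and with RefSeq transcripts alone. Neither gene passed the filter under those settings, so their calls were lost there as well. The lost calls include Hoxd8 in HOMING against NC, which came to 0.0 with the top transcript. The reversed ones were Hoxc5 in TUMOR against BM at -2.065 with the transcript of highest mean FPKM and -2.071 with RefSeq transcripts alone, where the long assembled transcript drops out. Each Hoxd call was kept under DESeq2, both other scalings, no filter, the compared groups alone and the omission of any library. Scaling by library size brought the median of all genes against NC to 0.098 to 0.132, from 0.009 to 0.0157 with TMM. TMM library sizes, tried after the data were seen, multiplied the bounds and ratios against NC by 0.919 to 0.945.

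The count of Hox genes called lower in BM against NC went from 1 to 0 with library size scaling, either limma fit, the top transcript or RefSeq alone, since Hoxc13 sits on the bound. Deviations from the group means correlated at -0.12 to 0.224 between same-numbered libraries, which cannot tell whether these libraries share animals. With the replicate block that count was 0 as well, with no other count of calls moved by over 1.5 times. Limma on log2(FPKM + 1) gave 0 higher in HOMING against NC, 3 in BM against NC and 1 in BM against HOMING. The top transcript gave 2, 3 and 3 there, 3 in TUMOR against HOMING, and 2, 1 and 1 lower in TUMOR against NC, HOMING and BM. RefSeq alone gave 3 higher in BM against NC, TUMOR against NC, BM against HOMING and TUMOR against HOMING, and 2, 1 and 1 lower in TUMOR against NC, HOMING and BM. Without a filter 1 was lower in BM against HOMING. With no minimum fold, 10 were higher and 7 lower in HOMING against NC, 13 lower in BM against NC, 12 higher and 7 lower in TUMOR against NC, 12 lower in BM against HOMING, 11 and 5 in TUMOR against HOMING, and 19 and 5 in TUMOR against BM.

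Summed FPKM by NC, HOMING, BM and TUMOR moved to 27.8, 27.4, 24.6 and 30.2 for Hoxa with the top transcript and to 35.5, 34.3, 29.9 and 40.6 with RefSeq alone. In NC, HOMING and BM it moved to 89.3, 82.3 and 95.8 or 90.9, 82.1 and 96.4 for Hoxb, and to 98.7, 93.2 and 76.1 with both for Hoxc. Hoxd moved to 0.3 in HOMING and 3.89 in BM, or 4.15 in BM. The posterior share was 68.9, 58.5, 67.9 and 60.6% with the top transcript, 69.7, 60.5, 69.0 and 62.0% with RefSeq alone and 62.2, 51.8, 62.2 and 51.9% from counts. Leaving out 1 library gave 4 to 5 higher and 0 to 1 lower in HOMING against NC, 0 to 1 lower in BM against NC and 5 to 7 higher in TUMOR against BM, and a Hoxd sum of 19.5 to 25.9 FPKM in TUMOR and 0.01 to 0.045 in NC.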
